A study of Mus musculus with 4 samples.

Results

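Mice with mammary tumours received phenformin with and without poly I:C, and the genes of the tumours' leukocytes that moved the same way in both settings are described here. The comparison used 21859 Ptprc-positive cells of the 30819 cell barcodes deposited. A cell was kept when at least 200 genes were detected in it, when under 20% of its UMIs (unique molecular identifiers, 1 per captured RNA molecule) were mitochondrial, and when it held at least 1 UMI of Ptprc, the gene of the leukocyte surface protein CD45. All 4 samples came from orthotopic MT4788 breast tumours in wild-type FVB mice, collected on day 4 and enriched for CD45-positive cells on magnetic beads. The first pair, without poly I:C, set the Saline+Phenformin sample against the Saline+PBS sample. The second pair, with poly I:C, set Poly I:C+Phenformin against Poly I:C+PBS. Each treatment was 1 sample, and the labels used here do not say how many animals, what doses or which sex went into it.

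Phenformin is a biguanide, a more lipophilic relative of metformin, that enters cells and slows complex I of the mitochondrial respiratory chain. Falling ATP and rising AMP then activate the kinase AMPK, which restrains mTORC1, and mitochondrial stress can start the integrated stress response. Poly I:C mimics the double-stranded RNA of viruses, and cells that sense it switch on type I interferon and inflammatory genes. In a tumour the same leukocyte pool holds macrophages, T cells, NK cells, dendritic cells and neutrophils, so a level in the pool can move through the cells' own transcripts or through the mix of cells. In such sums, fewer cells of a type and less RNA per cell cannot be told apart.

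The 4 samples gave 5117, 4699, 5345 and 6698 Ptprc-positive cells (PBS then phenformin without poly I:C, and PBS then phenformin with it, the order used throughout) and between 44603549 and 55818778 UMIs. The median cell held 6647, 8687, 8233 and 6390 UMIs. Phenformin thus went with deeper cells without poly I:C and shallower cells with it. Between 6 and 17 barcodes were shared by any pair of samples. UMIs were summed per sample and scaled to a common total (CPM), and the 6100 genes with at least 20 CPM in 1 sample or more were compared. A gene was called in a pair when its ratio, phenformin over PBS, was at least 1.5-fold and the exact 95% interval left out 1. Those intervals cover counting error only, because with 1 sample per treatment nothing measured the spread between tumours. An exact permutation test of 2 samples against 2 cannot give a two-sided p below 0.333 and was not run on single genes; the tests made are fits across all genes.

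Very few genes moved the same way in both pairs. Without poly I:C, 33 genes were at least 1.5-fold higher with phenformin (0.541% of those compared) and 90 lower (1.48%). With poly I:C, 60 were higher (0.984%) and 77 lower (1.26%). Only Cxcl13 was higher in both (1 gene, 0.0164%), and 9 genes were lower in both (0.148%). The opposite pattern was more frequent: 11 genes were higher without and lower with poly I:C (0.18%), and 18 were lower without and higher with it (0.295%). The shared genes made up 8.13% of the calls without poly I:C and 7.3% of those with it, while genes called in opposite ways made up 23.6% and 21.2%. The pairs have no sample in common. Across 6099 genes with a finite ratio in both, the log2 ratios were negatively related (Pearson r = -0.468, Spearman rho = -0.425), and 32.2% of all genes compared had ratios of the same sign. Genes are not independent replicates, so this is a description of these samples.

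**Figure D1:**
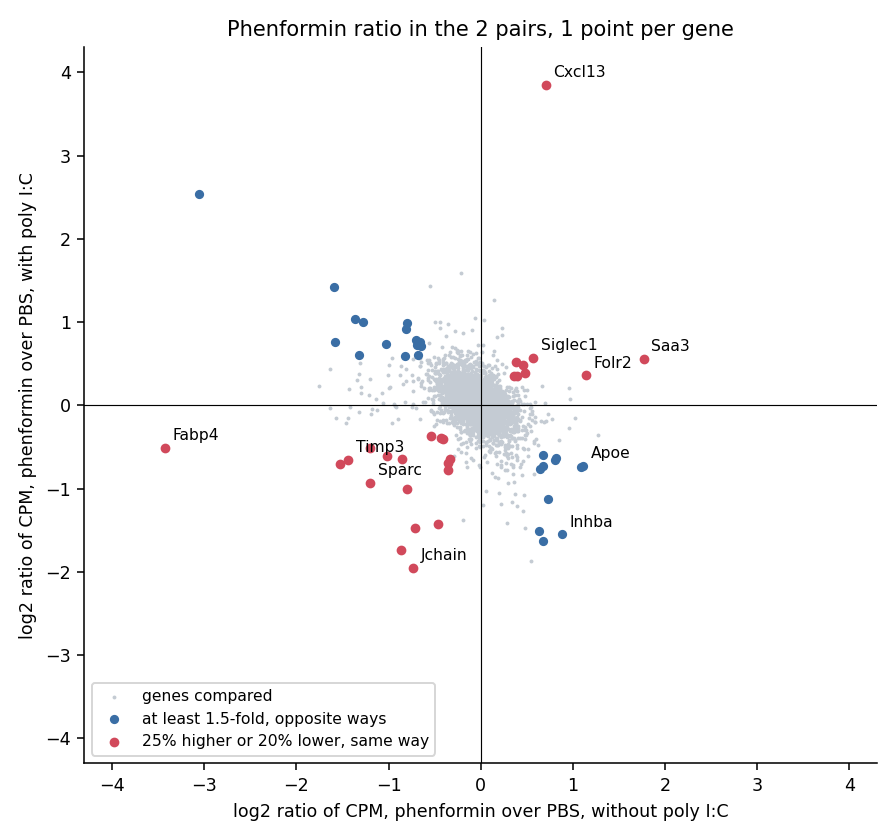
Each point is 1 gene, with the log2 ratio of CPM, phenformin over PBS, without poly I:C on the horizontal axis and with poly I:C on the vertical axis; 3 genes lie outside the axes. The grey cloud slopes downward (Pearson r = -0.468), the 27 genes past the smaller limit of 25% higher or 20% lower in both pairs (red) sit in the upper right and lower left, and the genes called 1.5-fold in opposite ways (blue) fill the other corners.

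A model across all genes called none. The additive fit in edgeR's quasi-likelihood test, with poly I:C and phenformin as terms, called 0 of 6100 genes (0%) at an adjusted p under 0.05. It gave 60 genes an unadjusted p under 0.05, a smaller share of the genes than 0.05 itself. Its smallest Benjamini-Hochberg adjusted p was 1, and 1 residual degree of freedom, the disagreement of the 2 pairs, was its only measure of spread. DESeq2 on the same counts called 0 genes higher and 7 lower. The smallest unadjusted p from edgeR among the genes of interest was that of Sparc, 0.000227, with an adjusted p of 1. Sparc was picked because its 2 pairs agreed, which also makes this p small.

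A smaller limit, at least 25% higher or 20% lower with the interval leaving out 1, shows weaker shared changes. By it 9 genes were higher in both pairs (0.148% of those compared) and 18 lower (0.295%), against 188 that passed it in opposite ways, 59 higher without and lower with poly I:C (0.967%) and 129 lower without and higher with it (2.11%). The 17 genes beyond those called at 1.5-fold were chosen after their values were seen. Near the 1.5-fold limit, Timp3, Col4a1 and Col11a1 were just inside, with ratios of 0.636, 0.638 and 0.653 in the pair with poly I:C. Siglec1, Saa3, Fabp4 and Cald1 were just outside, at 1.48, 1.47, 0.703 and 0.703 in that pair.

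**Figure D2:**
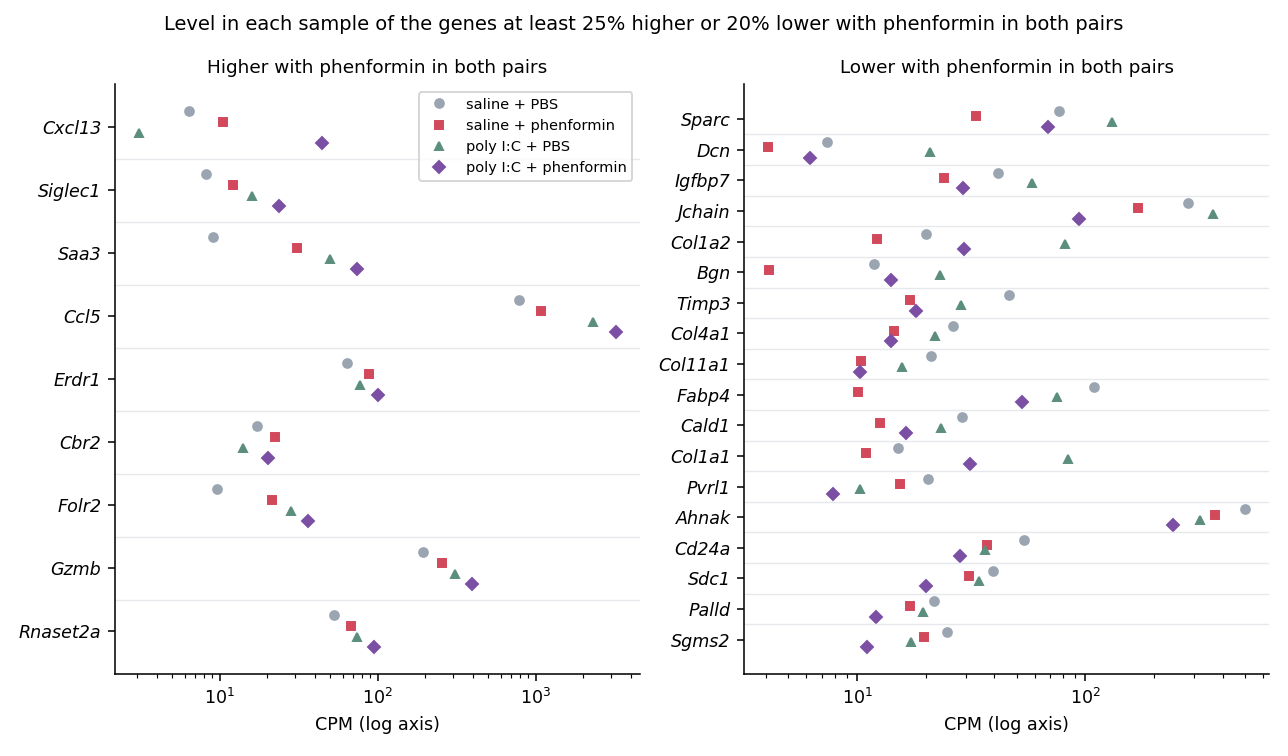
CPM in each of the 4 samples (log axis) for the 9 genes higher (left) and the 18 genes lower (right) with phenformin in both pairs by at least 25% and 20%. Saa3, Folr2, Siglec1, Ccl5, Gzmb and Rnaset2a stepped up from Saline+PBS to Poly I:C+Phenformin, while every gene on the right was lower in each phenformin sample than in its PBS partner.

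Saa3, Folr2 and Siglec1 had most of their UMIs in macrophage-like cells (69.5% to 88.2% of those of Saa3 and 84.5% to 94.1% of those of Siglec1). Saa3, an acute phase serum amyloid made by stimulated macrophages and epithelium, stood at 9.12, 31.0, 50.1 and 73.8 CPM. That is 3.4-fold higher with phenformin without poly I:C (95% interval 3.05 to 3.8) and 1.47-fold higher with it (1.4 to 1.55). Folr2, a folate receptor of tissue-resident macrophages, was at 9.69, 21.3, 28.3 and 36.3 CPM, with ratios of 2.2 (1.97 to 2.47) and 1.28 (1.2 to 1.37). Each phenformin sample was above its PBS partner, and for both genes the sample with poly I:C alone was above the one with phenformin alone. Siglec1, the sialic acid receptor CD169 and an interferon-induced gene of macrophages, was at 8.25, 12.2, 16.1 and 23.8 CPM and had ratios of 1.48 in both pairs (1.3 to 1.69 and 1.36 to 1.62). Cbr2, a carbonyl reductase, was at 17.3, 22.5, 14.2 and 20.4 CPM, with ratios of 1.3 (1.18 to 1.43) and 1.44 (1.31 to 1.58). Macrophage-like cells held 25.2%, 74.2%, 54.4% and 54.3% of its UMIs. In both samples with poly I:C its level was below that of the matching sample without it.

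Promoter sequence is shown for the 3 of these genes that were also detected in a larger share of equally deep cells in both pairs (below). RefSeq promoters (build GRCm38.p6) matched 6 of the 9 higher genes and 13 of the 18 lower ones, and the 250 bases before the start are given 5′ to 3′ in the gene's direction. The windows lie at chr7:46715677-46715926 for Saa3, chr7:101857191-101857440 for Folr2 and chr11:120732022-120732271 for Cbr2, all on the minus strand. Capitals mark matches on either strand to the C/EBP-like letters TTNNGNAA or the interferon response-like letters AAANNGAAA.
Saa3: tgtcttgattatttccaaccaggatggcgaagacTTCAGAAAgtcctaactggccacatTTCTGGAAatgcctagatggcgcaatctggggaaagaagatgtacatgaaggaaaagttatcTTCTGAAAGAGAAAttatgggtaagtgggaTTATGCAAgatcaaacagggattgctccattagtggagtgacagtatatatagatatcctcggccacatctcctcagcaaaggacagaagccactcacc
Folr2: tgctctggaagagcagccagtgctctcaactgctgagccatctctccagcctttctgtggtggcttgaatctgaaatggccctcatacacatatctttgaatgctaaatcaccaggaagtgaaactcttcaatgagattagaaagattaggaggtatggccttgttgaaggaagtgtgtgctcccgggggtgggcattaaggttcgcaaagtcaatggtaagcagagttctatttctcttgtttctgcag
Cbr2: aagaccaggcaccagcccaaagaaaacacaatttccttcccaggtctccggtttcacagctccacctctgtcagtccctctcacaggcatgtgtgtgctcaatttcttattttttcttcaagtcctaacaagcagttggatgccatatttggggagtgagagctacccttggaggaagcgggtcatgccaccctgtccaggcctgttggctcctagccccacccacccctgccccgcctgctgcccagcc
Saa3 held 4 C/EBP-like matches and 1 interferon response-like match, AAAGAGAAA, which overlaps the C/EBP-like match TTCTGAAA. Folr2 and Cbr2 held neither. Of 32851 RefSeq promoter windows of this length, 36.8% held the C/EBP-like letters and 9.37% the interferon response-like ones. None of the 3 windows matched NF-kB-like GGGNNTTCC (4.98% of all windows), AP-1-like TGANTCA (6.75%), GAS-like TTCNNNGAA (7.02%) or the E-box CACGTG (6.02%). A match is only a string of letters in this window.

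Of the chemokines, Cxcl13 had the largest ratio with poly I:C. This B cell attractant, which binds CXCR5, was at 6.43, 10.5, 3.08 and 44.5 CPM, 1.63-fold higher without poly I:C (1.41 to 1.89) and 14.4-fold higher with it (12.4 to 17). Its UMIs sat in very few cells. In Saline+Phenformin 540 UMIs came from 15 cells and the 10 cells with the most held 99.1% of them; in Poly I:C+Phenformin 2466 UMIs came from 189 cells and the first 10 held 48.5%. With those 10 cells left out of every sample, the log2 ratio without poly I:C went from 0.70 to -3.21, while that with poly I:C was 4.86, so the call in both pairs rested on those cells. In cells thinned to 2000 UMIs, Cxcl13 was found in 0.347%, 0.274%, 0.277% and 1.46% of cells (unthinned: 34, 15, 37 and 189 cells). Only the sample with both agents stood apart.

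Ccl5, which recruits T cells and monocytes, was broad. It was at 787, 1083, 2305 and 3221 CPM, 1.38-fold higher (1.36 to 1.39) and 1.4-fold higher (1.39 to 1.41) with phenformin. Within macrophage-like cells both ratios were above 1, at 1.46 and 1.98; within T or NK-like cells they parted, at 1.45 without and 0.775 with poly I:C. Gzmb, the serine protease of cytotoxic granules, was at 195, 256, 310 and 395 CPM, with ratios of 1.31 and 1.27. Most of its UMIs (87.3% to 92.5%) were in T or NK-like cells, where its ratio was 1.49 (1.45 to 1.54) without poly I:C and 1 (0.981 to 1.02) with it. The share of cells of that class was 37.6%, 34.7%, 38.7% and 44.6%.

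Rnaset2a, a lysosomal ribonuclease, and Erdr1, whose function is less clear, had small ratios in many cells. Rnaset2a was at 52.9, 67.7, 74.1 and 94.3 CPM (ratios 1.28 and 1.27), and its ratio was above 1 in macrophage-like cells (1.32 and 1.37) and in T or NK-like cells (1.15 and 1.16). Erdr1 was at 63.6, 88.4, 76.9 and 100.3 CPM (1.39 and 1.3). Both have near-identical copies in the mouse genome, so their counts are uncertain.

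A pair of checks that do not rest on a few rich cells were made for all 27 genes, both chosen after seeing the data. Without the 10 cells per sample that held the most UMIs of the gene, 8 of the 9 higher genes and 11 of the 18 lower genes still passed the smaller limit in both pairs. The 27 genes had been picked by that limit in the same samples, and neither check was made over all genes. The counts from both checks therefore describe these genes and are not independent support. The share of cells with a UMI was compared after every cell was thinned to 2000 UMIs, which left out between 294 and 511 shallower cells per sample. Saa3 was then detected in 0.847%, 1.74%, 3.38% and 4.6% of cells, Folr2 in 1.74%, 2.86%, 3.62% and 4.78%, and Cbr2 in 1.63%, 2.88%, 1.52% and 2.16%. Together with Rnaset2a and Erdr1 these were the 5 higher genes whose share was above its PBS partner in both pairs with both intervals leaving out a ratio of 1. Igfbp7, Cd24a and Ahnak were the 3 lower genes whose share was below it. Before thinning, Saa3 UMIs were present in 95, 180, 423 and 590 cells.

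Of the 9 genes lower with phenformin at 1.5-fold in both pairs, 8 encode extracellular matrix or matrix-associated proteins, and the last was Jchain of plasma cells. Sparc, a matrix glycoprotein of fibroblasts and endothelium, was at 76.6, 33.3, 130.5 and 68.4 CPM, with ratios of 0.435 (0.41 to 0.461) and 0.524 (0.504 to 0.545). The fibrillar collagen chain Col1a2 was at 20.1, 12.2, 81.2 and 29.3 CPM (0.608 and 0.361). Bgn and Dcn, small leucine-rich proteoglycans that bind collagen, were at 11.9, 4.12, 23 and 14.1 CPM and at 7.4, 4.08, 20.8 and 6.23 CPM. Timp3, an inhibitor of metalloproteinases held in the matrix, was at 46.3, 17.1, 28.4 and 18.1 CPM. For Sparc, Dcn and Col1a2 the sample with poly I:C alone was the highest, and for Timp3 the one with PBS alone was.

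Igfbp7, Col4a1 and Col11a1 were likewise lower in each phenformin sample than in its PBS partner. Igfbp7, a secreted vessel-associated protein, was at 41.6, 24, 58.3 and 29.1 CPM (0.576 and 0.499). Within T or NK-like cells it was also lower in both pairs, at 48.5, 28.4, 36.7 and 21.4 CPM (0.585 and 0.584). Col4a1, a basement membrane collagen, was at 26.2, 14.6, 22.1 and 14.1 CPM, and Col11a1 was at 21.1, 10.4, 15.8 and 10.3 CPM. By the smaller limit Col1a1 (0.726 and 0.373), Fabp4, a fatty acid carrier of adipocytes, endothelium and some macrophages (0.0929 and 0.703), and the actin-binding Cald1 (0.435 and 0.703) and Palld (0.782 and 0.621) were also lower. The ratio of Fabp4 without poly I:C rested on a few cells: 10 cells held 96.7% of its UMIs in Saline+PBS, and without the 10 richest cells of each sample that ratio was 1.18 (0.959 to 1.46). Lower by the same limit were Sdc1, a syndecan of epithelium and plasma cells (0.782 and 0.585), Pvrl1, a nectin (0.754 and 0.755), Cd24a (0.689 and 0.777), Sgms2, a sphingomyelin synthase (0.792 and 0.639), and the large scaffold gene Ahnak (0.739 and 0.76). Ahnak was the most abundant, at 503, 372, 318 and 242 CPM, and was detected in 53.3%, 45.1%, 41.9% and 32.7% of thinned cells.

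For the collagens of fibroblasts, Sparc and Dcn the UMIs came from few cells. A fibroblast-like cluster held 10, 4, 22 and 17 cells, and a tumour epithelial-like cluster 109, 37, 80 and 92, or 2.13%, 0.787%, 1.5% and 1.37% of the Ptprc-positive cells. All 10 Sparc-richest cells of each sample together held between 60.6% and 75.3% of its UMIs, and 10 cells held 100% of those of Dcn in Saline+PBS. Ahnak was spread widely instead, with UMIs in between 55.5% and 75.4% of cells and at most 4.02% of them in its 10 richest cells. The 10 richest cells held between 10.1% and 12.6% of the UMIs of Cd24a and between 11.1% and 13.9% of those of Sdc1. The summed level of the 8 fibroblast markers was 62.6, 43.5, 274 and 104 CPM, with 3 of the 8 lower in both pairs by the smaller limit. Those 3, Col1a2, Dcn and Col1a1, are themselves among the genes described here, and each of the 8 had UMIs in at least 1 sample. The 8 endothelial markers summed to 117, 96.4, 77.4 and 74.8 CPM. The sum of the 10 tumour epithelial markers was 589, 260, 387 and 458 CPM, so it was higher with phenformin in the pair with poly I:C. Without both clusters only Jchain was still lower in both pairs at 1.5-fold, and Cxcl13 and Saa3 were higher. With the share of every cluster held fixed, no gene was lower in both and 4 were higher (Slpi, S100a9, Cxcl13 and Saa3), by fold alone.

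Jchain, which joins secreted IgA and IgM into polymers, stood at 283, 170, 363 and 93.9 CPM, with ratios of 0.599 (0.583 to 0.616) and 0.259 (0.251 to 0.267). Its UMIs were found in 240, 167, 363 and 74 cells, and between 93% and 98.4% of them lay in a plasma-like cluster of 27, 21, 73 and 16 cells. With the share of every cluster held fixed its log2 ratio with poly I:C was 0.34. B cells went the other way. The cluster led by Cd79a, Ms4a1 and Pax5 held 52, 78, 30 and 153 cells, or 1.02%, 1.66%, 0.561% and 2.28%. Its share was 1.63-fold higher without poly I:C (1.14 to 2.37) and 4.07-fold higher with it (2.74 to 6.24). UMIs of Ms4a1 were found in 48, 72, 35 and 84 cells and those of Cd79a in 81, 114, 101 and 194. With poly I:C both counts thus rose less than that of the cluster. The B and plasma-like clusters together had a median of 4754, 5404, 9167 and 3033 UMIs per cell. The part of depth in this difference was not tested. The B cell cluster was the only 1 of the 24 clusters whose share was higher in both pairs with both intervals leaving out 1. The ratios of 2 further T or NK-like clusters were above 1 in both, those of cluster 14 at 1.01 and 2.12 and those of cluster 20 at 1.08 and 1.21, but without poly I:C their intervals held 1. The ratios of 7 clusters were below 1 in both pairs, the plasma, tumour epithelial and fibroblast-like ones among them, and for none did both intervals leave out 1.

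**Figure D3:**
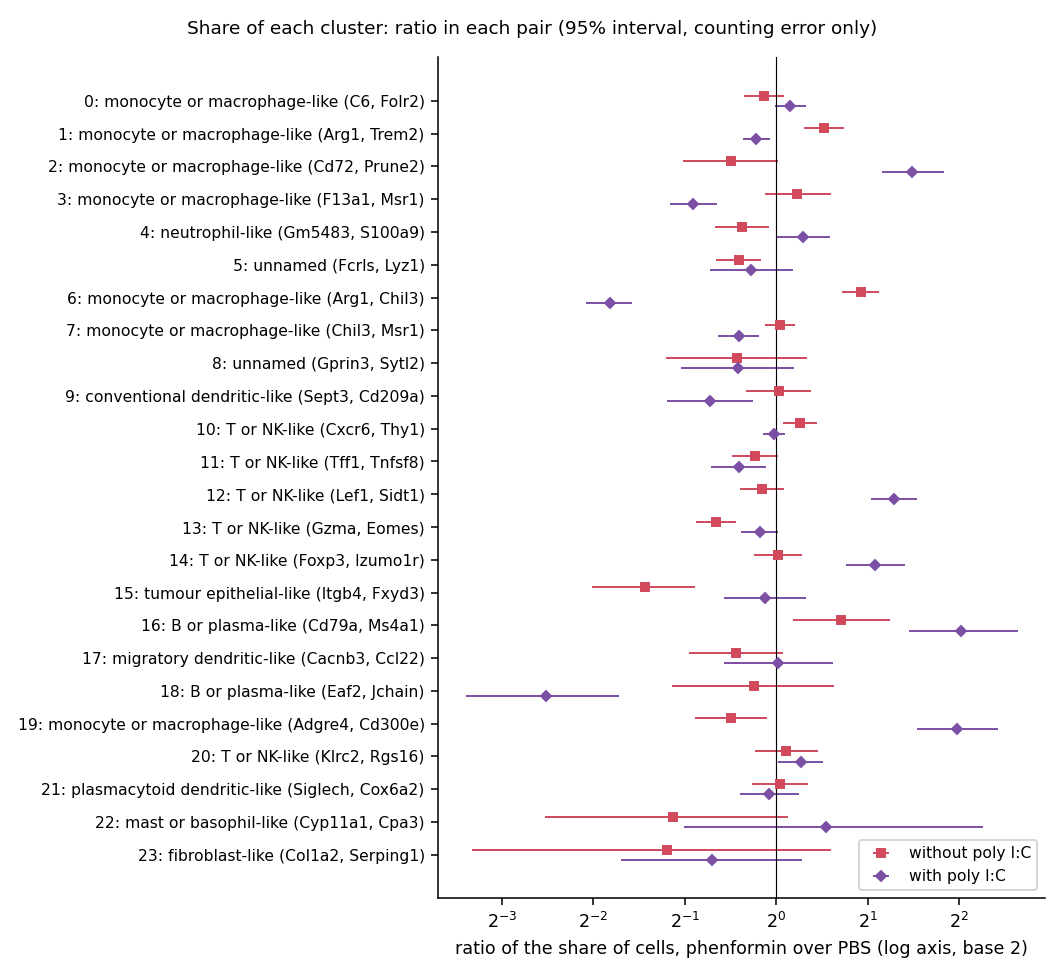
Ratio of each cluster's share of the Ptprc-positive cells, phenformin over PBS (log axis), without (squares) and with (diamonds) poly I:C; bars are exact 95% intervals for counting error. Cluster 16, the B cells, lies above 1 in both pairs, while clusters 1, 6 and 19 lie on opposite sides of 1.

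The main cell classes moved in opposite ways. Monocyte or macrophage-like cells were 38.4%, 45.4%, 46.6% and 40.9% of the cells, with ratios of 1.18 (1.11 to 1.26) and 0.877 (0.831 to 0.927), and T or NK-like cells had ratios of 0.924 and 1.15. The macrophage cluster led by Arg1, Chil3 and Nos2 held 6.2%, 11.8%, 9.36% and 2.64% of cells, 1.9-fold higher (1.65 to 2.19) and 0.282-fold (0.237 to 0.336). The cluster of patrolling monocyte genes Adgre4, Cd300e and Ace had ratios of 0.71 and 3.93. In all, 14 of 24 clusters had ratios on either side of 1, and for 3 of them both intervals left out 1. The part these shares had in the opposite gene ratios was not tested beyond holding them fixed, which left a Pearson r of -0.405.

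Within macrophage-like cells alone, 18 genes were higher in both pairs by the smaller limit (0.311% of 5796 compared) and 16 lower (0.276%); these genes too were chosen after their values were seen. Of them 7 higher genes and 1 lower gene were also called in all cells. The largest cluster of the class was cluster 7, led by Chil3, in both samples without poly I:C (629 of 1964 and 594 of 2135 cells) and cluster 1, led by Arg1 and Trem2, in both with it (699 of 2491 and 753 of 2739). The mix within the class also shifted inside each pair. Cluster 6, led by Arg1, Chil3 and Nos2, held 317, 553, 500 and 177 cells, cluster 2 held 83, 54, 95 and 334, and the patrolling monocyte cluster 19 held 138, 90, 53 and 261. Saa3 was at 18.2, 54.4, 59.9 and 109 CPM in this class, Folr2 at 21.0, 39.0, 45.7 and 64.7, Siglec1 at 17.7, 22.8, 25.8 and 43.3, and Cbr2 at 11.1, 33.2, 13.2 and 21.6. Il10, the anti-inflammatory cytokine, was at 11.4, 21.1, 10.4 and 15.2 CPM. The C-C chemokines Ccl4 (48.8, 86, 88.4 and 116) and Ccl12 (77.3, 105, 88.1 and 116), complement factor Cfb (81.8, 131, 128 and 168) and the galectin-binding Lgals3bp (261, 343, 408 and 530) were higher in both pairs as well.

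Cluster 0, macrophage-like and led by C6, Folr2 and Siglec1, carried much of the Folr2, Cbr2 and Siglec1 signal. There Folr2 was at 65.9, 177, 134 and 164 CPM, Cbr2 at 48.4, 182, 54.6 and 81.6, and Siglec1 at 53.3, 93.2, 72.9 and 108. Folr2, Cbr2 and Saa3 were left out when the clusters were formed; Siglec1 was not. Saa3 was spread differently. In the cluster led by Arg1, Chil3 and Nos2 it was at 18.1, 54.4, 56.2 and 170 CPM and in the one led by Chil3 at 20.6, 38.8, 45.6 and 190, whereas in cluster 0 it was at 8.02 and 7.93 without poly I:C and 73.6 and 162 with it. In cluster 0 Saa3 was thus about level when poly I:C was not given.

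The genes lower in macrophage-like cells in both pairs were in part T cell transcripts. Cd3d (30.8, 20.8, 45.6 and 30.9 CPM), Cd3g, Cd8b1, Nkg7, Pdcd1, Gzmb, Il2ra and Rora were among the 16. With the 6% of cells that had the highest doublet scores left out, 7 were lower. The others included Mfge8, a bridge for the uptake of dying cells (43.6, 16.4, 24.7 and 14.9 CPM), the chemokine receptor Ccr7 (51.2, 34.5, 45.1 and 32.7) and the protease inhibitor Slpi (62.2, 46.7, 58.6 and 37.0). Jchain, a plasma cell transcript, was at 25.1, 2.89, 4.13 and 0.702 CPM in macrophage-like cells. Doublets were not removed, because automatic calls marked 84 and 69 cells without poly I:C and 1 cell in each sample with it. Cluster 3, in the macrophage-like class, had a median doublet score of 0.212, the highest of the 24 clusters. It held 126, 136, 316 and 211 cells.

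Within T or NK-like cells, 6 genes were higher in both pairs by the smaller limit (0.104% of 5774) and 36 lower (0.623%). Of them 0 higher genes and 1 lower gene, Igfbp7, were also called in all cells. The mix within this class shifted as well. Cluster 13 had Gzma and Ncr1 among its leading genes. It held 467 of 1922, 272 of 1631, 385 of 2067 and 426 of 2990 cells of the class. Cluster 12, led by Lef1, held 312, 257, 175 and 536. The part of this mix in the ratios was not tested. Il13, the type 2 cytokine, was at 68.6, 23.4, 15 and 5.33 CPM, a log2 ratio of -1.56 without and -1.50 with poly I:C. Few cells carried it. Over all leukocytes 52, 46, 18 and 19 cells had a UMI of Il13, the 10 richest held 88.3%, 73%, 96.1% and 96.4% of its UMIs, and with poly I:C its ratio there was 1.24 (1.02 to 1.49), opposite to that within the class. Kit, the receptor of stem cell factor (31.0, 20.4, 23.1 and 12.8), the integrins Itga4 (173, 101, 145 and 101) and Itgb3 (144, 80.2, 79.0 and 62.7), the angiogenic factor Vegfa (54.4, 32.7, 36.7 and 27.2), the decoy receptor Il1r2 (71.4, 54.9, 53.6 and 32.2) and the NK receptor Ncr1 (24, 18.4, 18.6 and 14.4) were also lower. The higher genes were Xcl1, a chemokine that draws cross-presenting dendritic cells (76.6, 98.1, 66.0 and 99.5 CPM), the interferon-induced nuclease Isg20 (33.2, 42.9, 65.9 and 83), the chaperone Hspa1a, the kinetochore gene Spc24, Abi3 and the neutrophil gene S100a9. Cluster 11, which held 92.9%, 71.9%, 99% and 38.6% of the Il13 UMIs, was 5.86%, 4.98%, 3.54% and 2.66% of cells, with ratios of 0.849 (0.713 to 1.01) and 0.752 (0.609 to 0.927).

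In the pathways tied to the drug's known action no gene was called in both pairs at either limit, as for nearly all genes: only 27 of the 6100 compared were. None of 37 nuclear complex I subunits was called in both pairs, and their median log2 ratios were 0.14 and 0.04, beside -0.06 and 0.06 for all genes. Ndufs1, a core subunit, was at 40.5, 38.5, 30.1 and 31.5 CPM. None of 13 mitochondrially encoded respiratory chain genes was called (medians -0.05 and -0.04), and mt-Nd1 was at 2661, 2843, 2081 and 2029 CPM. None of 13 AMPK and mTORC1 regulators was called (-0.14 and 0.08), and Prkaa1, the catalytic alpha subunit of AMPK, was at 20.2, 18.4, 18.5 and 20.6 CPM. The integrated stress response (14 genes, -0.05 and -0.02), glycolysis (17 genes, 0.08 and -0.12), hypoxia (12 genes, 0.00 and -0.24) and sterol and fatty acid synthesis (14 genes, -0.13 and 0.00) likewise had no gene called in both. RNA levels do not report the activity of AMPK or complex I.

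Immune lists mostly pointed in opposite ways in the 2 pairs. Of the 30 lists, 24 had medians of opposite sign, and 24 held no gene called in both pairs by the smaller limit. Among all genes compared, 32.2% had ratios of the same sign and 27 of 6100 were called in both. The cell cycle list (27 genes) had medians of -0.20 without and 0.42 with poly I:C, and 6 of its genes, Mki67, Top2a, Birc5, Cenpf, Tpx2 and Mcm2, passed the smaller limit as lower without and higher with it, as 2.11% of all genes did. Naive and recirculating lymphocyte genes (11 genes, -0.19 and 0.47) and regulatory T cell genes (11 genes, -0.21 and 0.35) had the same order, with Lef1, Tcf7 and Ikzf2 among those past the smaller limit in opposite ways. Macrophage lipid handling (15 genes, 0.18 and -0.39) and alternative activation (15 genes, 0.39 and -0.20) had the reverse order. Folr2 and Cbr2 of the latter list were higher in both pairs by the smaller limit, as 9 of all 6100 genes were. By that limit 5 of its genes moved in opposite ways, as 188 of all 6100 did. Mgl2, Clec10a, F13a1 and Pdcd1lg2 were higher without and lower with poly I:C, and Retnla was the reverse. Type I interferon genes (34 genes, -0.09 and 0.09) had no gene called in both, and Ifit1 moved in opposite ways. Class II presentation genes (10 genes, 0.24 and -0.23) had ratios of the same sign for 10% of their members.

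**Figure D4:**
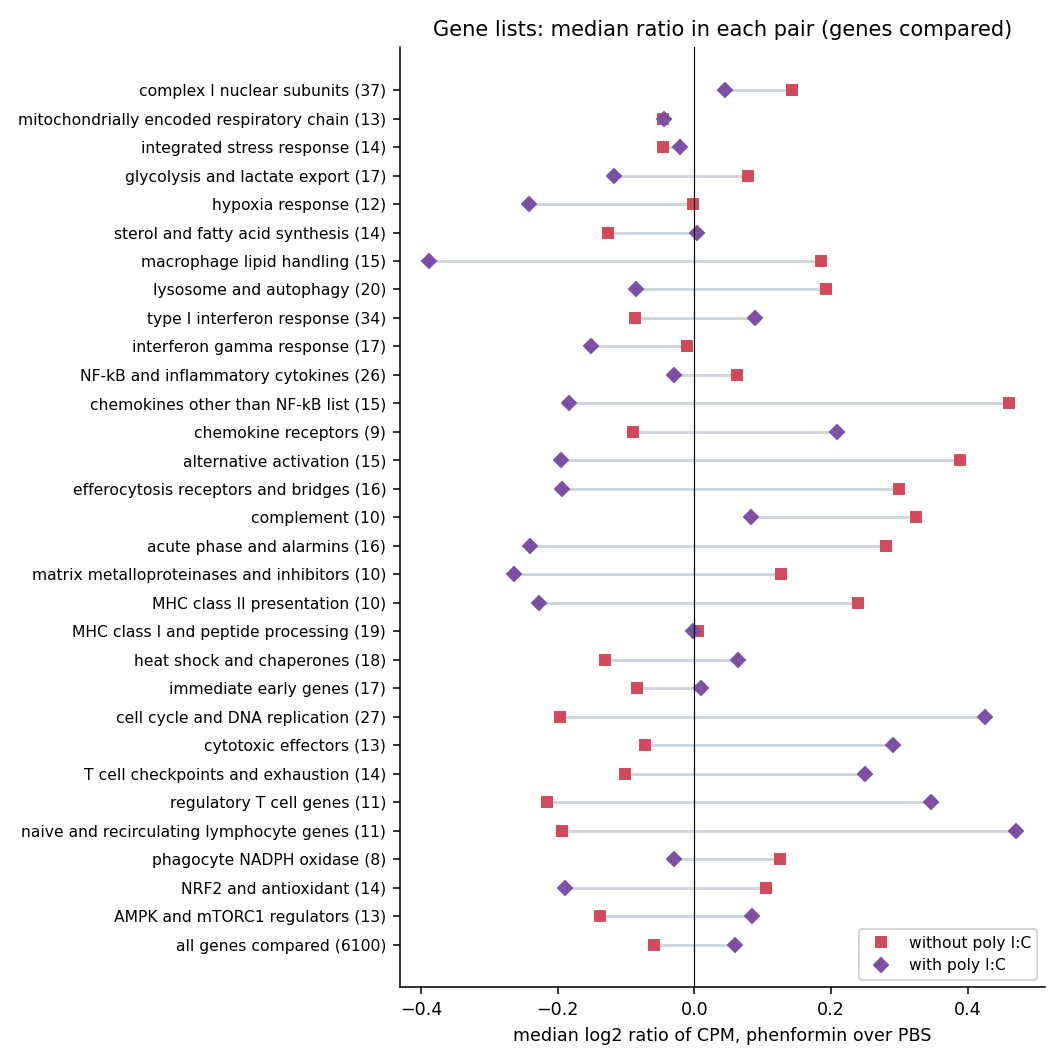
Median log2 ratio of CPM, phenformin over PBS, for each gene list without (squares) and with (diamonds) poly I:C, with the number of genes compared in brackets. For 24 of the 30 lists the 2 markers lie on opposite sides of 0. The complex I medians were 0.14 without and 0.04 with poly I:C, beside -0.06 and 0.06 for all genes. Without poly I:C, 31 of its 37 genes had a ratio above 1, against 2231 of all 6100. The integrated stress response medians were -0.05 and -0.02.

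**Figure D5:**
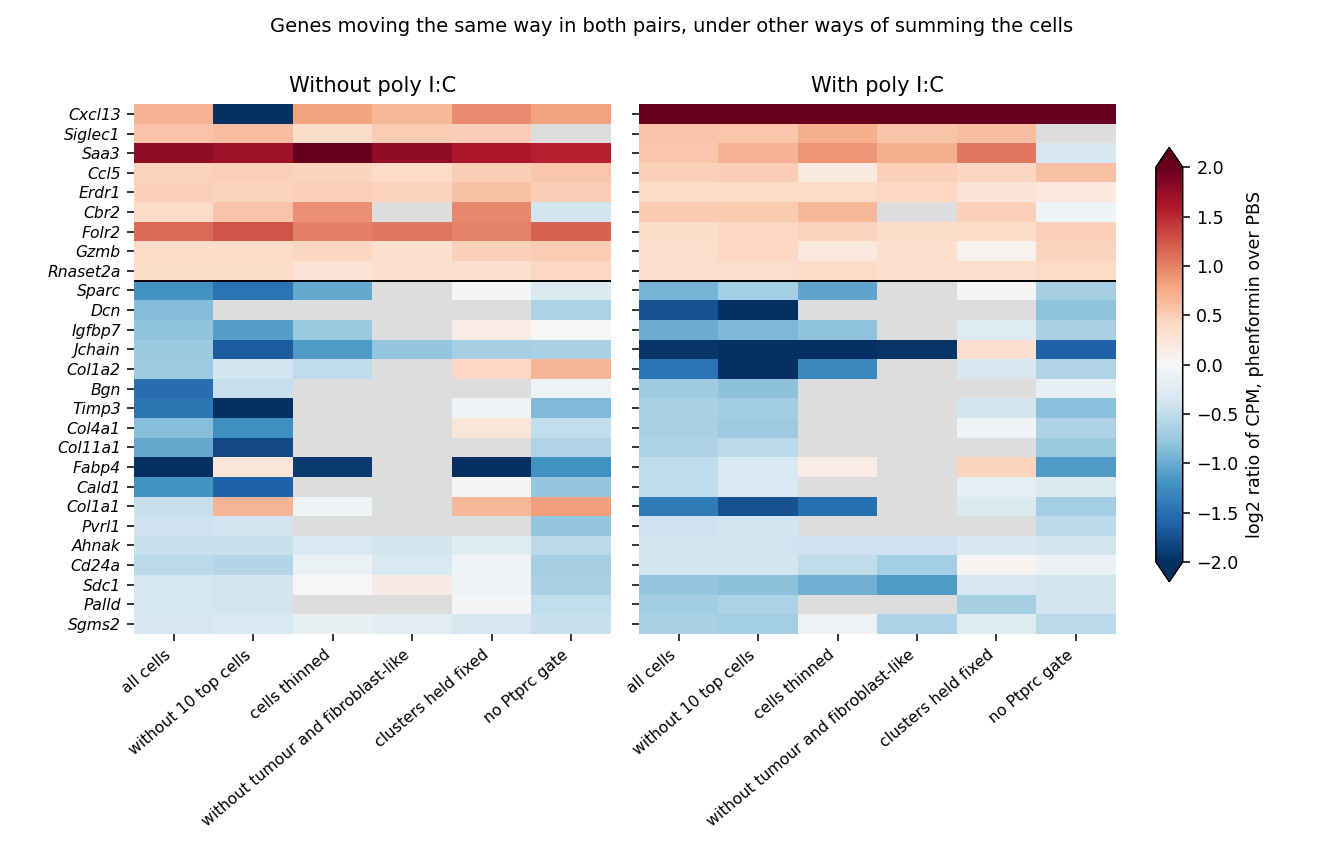
Log2 ratio of the 27 genes past the smaller limit in both pairs (rows; higher above the line, lower beneath it) under 6 ways of summing the cells (columns), in each pair; grey marks a gene under 20 CPM or without a value in that setting. Folr2, Ccl5, Gzmb, Erdr1 and Rnaset2a stay above 0 in every column, while Sparc, Dcn, Bgn, Timp3 and the collagen genes turn pale or grey, or pass 0 in the pair without poly I:C, once the tumour and fibroblast-like cells are left out or cluster shares are held fixed.

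Saa3 and Cbr2 were not higher in both pairs once the gate was dropped. When all 26435 cells that passed the gene and mitochondrial filters were summed without asking for Ptprc, the log2 ratio of Saa3 was 1.55 without and -0.32 with poly I:C, and that of Cbr2 was -0.37 and -0.08. Tumour epithelial-like cells held 70% of the Cbr2 UMIs of Saline+PBS even within the gate. Folr2 (1.18 and 0.48), Ccl5 (0.55 and 0.58), Rnaset2a (0.41 and 0.38) and Erdr1 (0.49 and 0.21) were above 0 in both pairs without the gate. Ptprc itself was at 842, 700, 593 and 712 CPM, lower with phenformin without poly I:C and higher with it. Per the labels over 90% of the cells should be CD45-positive, and between 81% and 86% of the filtered cells held a Ptprc UMI, a share that also depends on depth.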

How the data were processed

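Single-cell 3′ libraries of 4 CD45-enriched mouse tumour samples were analysed from the deposited UMI counts per gene and barcode. The authors used Cell Ranger 3.1.0 and builds mm10 and GRCm38, per the submitters' processing notes and the file headers. The 27998 gene models were shared by all samples. Cells were filtered (at least 200 genes, under 20% mitochondrial UMIs, at least 1 Ptprc UMI) and UMIs summed per sample. CPM ratios had exact 95% intervals conditional on the total. The additive model used edgeR 4.0.16 (TMM, Benjamini-Hochberg over 6100 genes), with DESeq2 1.42.0 as an alternative, in R 4.3.3. The edgeR fit was also run on simulated counts with no poly I:C effect and no interaction. That run therefore does not cover the disagreement of the pairs seen here. Cells were clustered with scanpy 1.11.5 (30 components, 15 neighbours, resolution 1) without the listed genes and the genes called in both pairs, and 22 of 24 clusters were named from fixed markers. A cluster with none of its class's markers among its 10 leading genes stayed unnamed, a criterion set after seeing the data.

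The members and gene lists were chosen with earlier results of these data known. Named genes were the strongest called in both pairs, up to 4 called in opposite ways each way, up to 3 per list, and Prkaa1, Ndufs1, mt-Nd1 and Ptprc. Any further gene was named after its values were seen. Where each cell holds few UMIs, low genes are limited by counting error, and no replicate measured the spread between tumours.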

Additional observations from a re-analysis of the deposited data

Results flagged for a closer look

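These genes were at least 1.5-fold higher in one pair and lower in the other. The values are the log2 ratio with poly I:C minus that without it, and with 1 sample per treatment the difference was not tested. Apoe, the lipid carrier of macrophages, differed by -1.84 (1173, 2540, 7688 and 4655 CPM). Inhba, the activin A subunit, differed by -2.43 (25.5, 47.0, 65.3 and 22.3 CPM). Pf4, a platelet and macrophage chemokine, differed by -1.83 (54.1, 115, 264 and 158 CPM), and Ecm1 by -1.41 (47.4, 75.8, 152 and 91.4 CPM). The mast cell proteases Mcpt2 and Mcpt1 differed by 12.26 and 12.88. UMIs of Mcpt2 were found in 98, 6, 9 and 119 cells and those of Mcpt1 in 134, 5, 3 and 84. The mast or basophil-like cluster held 19, 8, 6 and 11 cells. The neutrophil granule genes Ngp and Camp differed by 8.35 and 5.59, with UMIs in only 3 and 6 cells of Saline+PBS. Ngp had no UMI in Saline+Phenformin, so its value uses a floor of 3 counts there and is a lower bound. Left without the 10 richest cells per sample, Apoe, Pf4, Inhba and Ecm1 still had log2 ratios above 0 without and below 0 with poly I:C, whereas Camp with poly I:C was -0.36. Ngp and Camp then had 0 UMIs left in Saline+PBS, so they had no ratio without poly I:C. Mcpt1 and Mcpt2 had 0 left in both Saline+Phenformin and Poly I:C+PBS.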

How the results depend on the processing

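The count of genes higher in both pairs was 1 and that of genes lower in both 9. TMM scaling, stricter cells (500 genes, 10% mitochondrial) and leaving out the 6% highest doublet scores moved neither by over 1.5 times. Higher and lower counts were 1 and 19 without the Ptprc gate, 2 and 9 with at least 2 Ptprc UMIs, 7 and 4 with cells thinned to 2000 UMIs, 2 and 1 without tumour epithelial and fibroblast-like clusters, 2 and 2 in macrophage-like cells, 1 and 5 in T or NK-like cells, 5 and 4 as a mean over cells, 3 and 1 with class composition held fixed, 4 and 0 with cluster composition held fixed (fold alone, with no interval, for the last 3), 9 and 18 by the smaller limit, 0 and 0 at 2-fold, 0 and 2 at 100 CPM or more, and 19 and 137 with no CPM filter.

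The correlation of the pairs was below 0 in every setting run: -0.223 without the gate, -0.383 without high doublet scores, -0.298 thinned, -0.55 without the tumour and fibroblast-like clusters, -0.257 in macrophage-like cells, -0.17 in T or NK-like cells, -0.279 as a mean over cells, -0.405 with clusters held fixed or at 100 CPM, and -0.0438 with no CPM filter. The additive fit called 7 lower genes by DESeq2 and 4 with total UMIs in place of TMM; without poly I:C as the pairing block it called 0 higher and 0 lower. Macrophage-like genes lower in both by the smaller limit were 7 without high doublet scores.

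Of 801 values of 39 genes under 13 alternatives, 408 stayed within the counting interval, 380 moved beyond it and 13 values called at 1.5-fold in their pair turned direction. A further 20 that were not called there also changed sign, among them Saa3 with poly I:C (-0.32) and Cbr2 (-0.37 and -0.08) without the gate, Col1a1 without poly I:C (0.68 without the 10 richest cells) and Fabp4 with poly I:C (0.44, clusters held fixed). Without poly I:C the 13 were Igfbp7 (0.01 without the gate, 0.12 and 0.15 with class and cluster composition held fixed), Col1a2 (0.68, 0.42 and 0.42), Col4a1 (0.26 and 0.24 with composition held fixed), and, without the 10 richest cells, Cxcl13 (-3.21) and Fabp4 (0.24). With poly I:C they were Jchain (0.34, clusters held fixed), Sgms2 (0.05, mean over cells) and Camp (-0.36, without the 10 richest cells). The cause was not tested. No sample could be left out in turn, since 1 sample per treatment leaves a single pair and no residual degree of freedom.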
